A study of Mus musculus with 16 samples.

Results

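The 35 genes described here are macrophage and myeloid genes, chosen by name, and they were followed through 16 arrays of the embryonic mouse kidney. Each gene was read through 1 probe set, a group of short probes for 1 transcript. It was the probe set with the highest mean log2 level over the 16 arrays among those whose annotation names that gene alone. All 35 genes had such a probe set, out of 18193 genes on the array, and 14 of them had more than 1. The choice used no difference between groups.

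Tissue macrophages are phagocytes that settle in nearly every organ of the embryo, where they clear dying cells and cell debris. They arise first from yolk sac progenitors, depend on signals through the receptor encoded by Csf1r, and read their identity from the transcription factor PU.1, encoded by Spi1. In the developing kidney they lie in the mesenchyme and stroma around the epithelium rather than inside the ureteric bud. In bulk samples such as these, fewer macrophages and less RNA per macrophage cannot be told apart.

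All samples were taken at E11.5, the stage at which the ureteric bud (UB), an epithelial tube and forerunner of the collecting system, lies within the metanephric mesenchyme (MM), the source of nephrons and stroma. The study looked for genes particular to each compartment and for genes that depend on Hoxa11 and Hoxd11, 2 related homeobox transcription factors needed for kidney growth. The 4 UB samples were wild type, pooled from 3 to 9 buds each, and the 3 hand-dissected MM samples were wild type and each came from a single mesenchyme. Both kinds were separated by hand after collagenase at 0.5 mg/ml and 37 °C. A further 4 wild-type MM samples were cut out of tissue sections with a laser (laser capture); each pooled 3 to 4 mesenchymes from kidney rudiments sectioned at 7 µm. The 5 null samples, from embryos lacking both Hoxa11 and Hoxd11, were laser-captured MM from 7 µm sections of whole urogenital ridges. No number of pooled pieces is given for the null samples. Source piece and genotype therefore differ together between the null and the wild-type captures, and pooling may differ as well. Their parts cannot be told apart. Method and pooling likewise differ together between captured and hand-dissected MM, as do compartment and pooling between UB and hand-dissected MM. The sources used here name no strain, litter, slide or scan date, and batches were not tested.

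Values are MAS5 signals, a linear brightness scaled to the same trimmed mean on every array. Differences are on the scale log2(signal + 36.3), which understates the change of dim genes, and they are given with the SE from limma, a linear model fitted over all kept probe sets. A gene was tested when its signal was above the array median on a number of arrays no less than the size of the smaller group, and a call is an adjusted p under 0.05. Genes of the array are counted by the same rule as a background. One null capture, replicate 1, stood apart before any test. Its median correlation with the other null arrays was 0.896 against 0.928 to 0.933 for the others, and its median signal was 209.2 against 112.7 to 128.9. Its Hoxa11 signal of 196.6 was above the 91.8 to 136.7 of the other null captures and below the 525.5 to 839.6 of the wild-type captures. Hoxd11 overlapped between null (192 to 482.2) and wild-type captures (317.8 to 586.8), and whether its probes lie in the deleted part was not tested. Centring each array on its median widened the excess of probe sets called higher over lower in UB against MM and turned the balance in the other 2 comparisons. The counts went from 2952 higher and 2749 lower to 4015 and 2204 in UB against MM, from 138 and 273 to 136 and 71 in null against wild type, and from 3857 and 2009 to 2435 and 3207 in capture against hand dissection. Of the 2 RNA quality measures at hand, the ratio of 3' to 5' probe signals of Gapdh was 6.53 to 12.2 in UB, 22.1 to 69.3 in hand-dissected MM, 14.3 to 22.9 in wild-type captures and 18.4 to 26.3 in null captures. The same ratio of Actb overlapped between UB (10.9 to 16.3), hand-dissected MM (11.1 to 17.9) and wild-type captures (14.8 to 20.9), and was 17.5 to 27.6 in null captures.

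The module as a whole was low in UB, high in wild-type MM by either method, and low in 4 of the 5 null captures. Its mean log2 level was 6.69, 6.72, 6.73 and 6.80 on the UB arrays, 6.74 ± 0.05 (SD, n = 4). On the hand-dissected MM arrays it was 7.77, 8.55 and 8.56, 8.29 ± 0.45 (SD, n = 3). The wild-type captures read 8.83, 9.11, 9.01 and 8.35, 8.82 ± 0.34 (SD, n = 4). Null replicates 1 to 5 read 8.70, 6.84, 7.34, 7.39 and 7.21, 7.50 ± 0.71 (SD, n = 5). UB overlapped with no other group, and only null replicate 1 reached the range of the wild-type captures. Within groups, hand-dissected MM replicate 5 held the lowest signal for 25 of the 35 genes, wild-type capture 4 for 21, and null replicate 1 the highest for 26. The same counts over all genes are not given here. Null replicate 1 also had the highest median signal of the null captures, 209.2 against 112.7 to 128.9. Replicate 5 was also the hand-dissected array with the highest Gapdh and Actb ratios, 69.3 and 17.9, and the part of RNA quality in its low level was not tested.

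**Figure D1:**
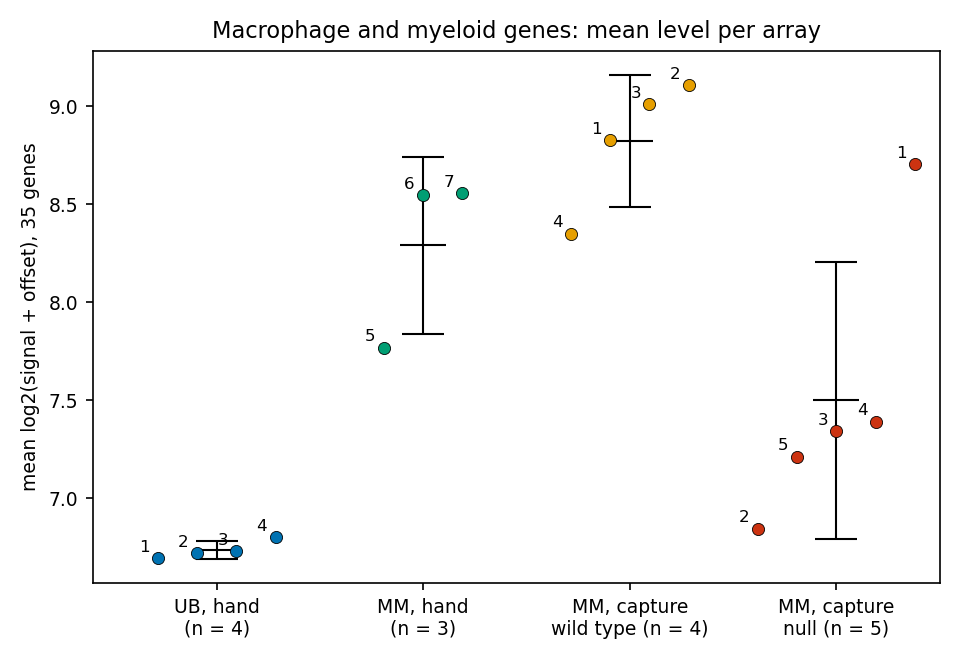
Mean log2(signal + 36.3) over the 35 macrophage and myeloid genes (y axis) on each array, by group (x axis), with replicate numbers beside the points; horizontal marks are group means and bars are 1 SD over arrays. The 4 UB arrays lie between 6.69 and 6.80, the wild-type captures between 8.35 and 9.11, and null replicate 1 at 8.70 lies among the wild-type captures while the other null captures lie between 6.84 and 7.39.

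Not every gene of the module gave a usable signal. Aif1 (the macrophage actin-binding protein Iba1), Itgam (the integrin alpha chain of CD11b), Trem2 (a lipid-sensing receptor), Hcls1 (a cortactin-like protein of blood cells) and Cybb (the catalytic subunit of the phagocyte oxidase) were above the array median on no array by their chosen probe sets. Another probe set of Trem2 and another of Cybb were each above it on 1 array. Only Cd68, Coro1a and Pf4 were above it on all 16. Of the 35 genes, 18 were tested in every comparison and 8 in none, the other 3 of these being Cd14, Ccl3 and Lcp2.

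**Figure D2:**
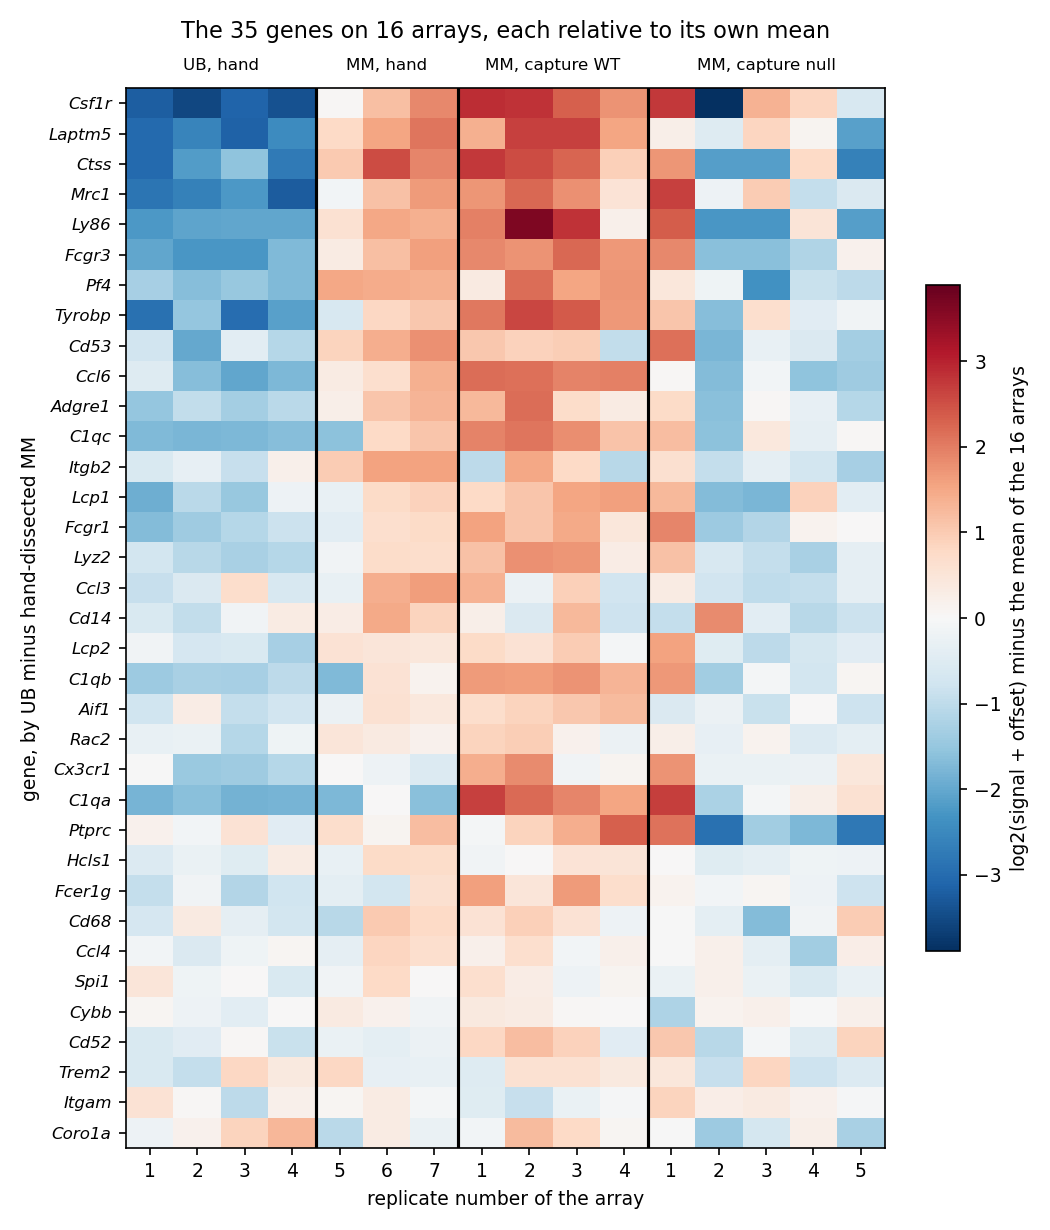
Each row is 1 of the 35 genes and each column 1 of the 16 arrays, grouped and numbered by replicate; colour is log2(signal + 36.3) minus that gene's own mean over the 16 arrays, and rows run from the most negative UB minus hand-dissected MM difference to the most positive. Rows at the top are blue in all 4 UB arrays and red in MM, and the column of null replicate 1 is red for most genes where null replicates 2 to 5 are blue; Coro1a, in the last row, is highest in UB replicate 4.

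UB against hand-dissected MM asked which compartment carries these transcripts, as far as pooling and RNA quality allow. The Gapdh ratios of UB and hand-dissected MM did not overlap, and the part of RNA quality was not tested. Of the 35 genes, 14 were lower in UB and 0 higher, with 20 tested in limma. At an unadjusted p under 0.05 it was 15 lower and 0 higher, with 20.4% of all genes tested lower at that threshold. By adjusted p, 14.6% of the genes tested over the array were lower and 13.9% higher. Of the 14, Tyrobp, Lyz2, Mrc1, Fcgr3, Itgb2, Ly86, Cd53 and Ccl6 passed the signal filter through MM arrays alone. On UB arrays these genes were never above the array median. With no filter on signal, 16 of all 35 were lower in limma, the 14 and also Fcgr1 and Lcp2, against 9.54% of all genes. The mean was lower in UB for 34 of 35 genes (54.9% of all genes), and for 17 of 35 every UB array lay below every MM array (16.4% of all genes). The median difference over all 35 genes was -1.21, against -0.06 over all genes. The count stayed between 12 and 19 under every alternative tried. Only Coro1a, coronin 1A, had a higher mean in UB.

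Among the regulators of the lineage, the receptor gene was called and the transcription factor was not. Csf1r, the receptor for the macrophage growth factors CSF1 and IL-34, read 120.2, 85.5, 127.8 and 99.8 in UB and 1458, 3172 and 5222 in hand-dissected MM, a difference of -4.35 ± 0.36 (SE, adjusted p = 4.19e-06). UB signals of Csf1r lay near the array medians of 126.8 to 132.9, and every MM array was far above them. The 2 other tested probe sets of Csf1r differed between themselves, 1 at -2.71 (adjusted p = 9.67e-05) and 1 at -0.24 (adjusted p = 0.559). Spi1, the gene of PU.1, gave 200.8, 117.6, 137.7 and 77.0 in UB and 121.2, 256.2 and 139.2 in MM. The groups overlapped, and the difference of -0.29 ± 0.34 (SE) did not pass (adjusted p = 0.576). Ptprc, the leukocyte phosphatase CD45, also overlapped, at 179.8 to 392.5 in UB and 277.1 to 636.7 in MM (adjusted p = 0.185).

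Signalling adaptors and cytoskeletal genes were split. Tyrobp encodes DAP12, an adaptor that carries activating signals from myeloid receptors. It read 10.6, 87.6, 9 and 45.9 in UB and 192.3, 588.9 and 689.4 in MM, a difference of -2.78 ± 0.47 (SE, adjusted p = 0.00112), with no overlap. Lcp1, the actin bundler L-plastin, was lower by a smaller step, -1.61 ± 0.41 (SE, adjusted p = 0.0132), and its groups overlapped: UB replicate 4 at 479.2 exceeded MM replicate 5 at 447.7. The call of Lcp1 was lost without MM replicate 6 (-1.46) or 7 (-1.38). Its second probe set differed by -0.82 and did not pass (adjusted p = 0.188). Rac2, a GTPase of blood cells, had no overlap (74.3 to 178.7 in UB, 234.5 to 297.7 in MM) and did not pass (adjusted p = 0.0758). Coro1a, an actin regulator of leukocytes, went the other way with 472.9, 613.5, 1021 and 1409 in UB and 249, 700.4 and 453 in MM. Its difference of 0.85 ± 0.40 (SE) did not pass (adjusted p = 0.146), while its second probe set did, at 1.05 (adjusted p = 0.0481).

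Of the phagocytic receptors and surface markers tested, Mrc1, Fcgr3, Adgre1, Ly86, Cd53 and Itgb2 were lower in UB and Cd68 did not pass. Mrc1, the mannose receptor CD206, read 36.5, 48.8, 76.6 and 19.4 in UB and 456.2, 1141 and 1640 in MM, a difference of -3.65 ± 0.41 (SE, adjusted p = 4.43e-05). Fcgr3, an Fc receptor that binds antibody-coated targets, read 15.9, 7.8, 7.7 and 28.7 in UB and 227, 448.3 and 609.3 in MM, a difference of -3.10 ± 0.36 (SE, adjusted p = 6.50e-05). Adgre1, the F4/80 antigen used to stain mouse macrophages, read 97.5 to 162.2 in UB and 408.6 to 921.3 in MM (-2.08, adjusted p = 0.000357). None of these 3 overlapped. Ly86, the partner of the Toll-like receptor relative RP105, was at 3.8 to 10.3 in UB and 249.9 to 500.4 in MM (-3.25, adjusted p = 2.00e-05). Cd53, a tetraspanin of leukocytes, differed by -2.42 (adjusted p = 0.000763), and Itgb2, the beta chain of the leukocyte integrins, by -1.78 (adjusted p = 0.00261). Cd68, a lysosomal membrane protein, overlapped between the groups (286.8 to 648.7 in UB, 216.8 to 1043 in MM) and did not pass (adjusted p = 0.387).

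Lysosomal and secreted products of macrophages completed the set. Ctss, the cysteine protease cathepsin S, read 31, 84.8, 147.9 and 45.5 in UB and 1085, 3178 and 2021 in MM, a difference of -4.21 ± 0.41 (SE, adjusted p = 1.42e-05). Laptm5, a lysosomal membrane protein of blood cells, read 84.3, 127.9, 74.5 and 143.1 in UB and 1633, 2833 and 4121 in MM, a difference of -4.27 ± 0.32 (SE, adjusted p = 1.80e-06). Both stood clear of overlap by these probe sets. Other probe sets of Laptm5 that were tested differed by -1.32 (adjusted p = 0.00155) and -0.43 (adjusted p = 0.309). Those below the signal filter differed by -1.25 and 0.65. Lyz2, lysozyme, was 71.2 to 121.4 in UB and 201 to 388 in MM (-1.47, adjusted p = 0.00400). Among the chemokines, Ccl6 read 91.6, 21.8, 9 and 17.9 in UB and 192.7, 251.1 and 440.7 in MM, a difference of -2.27 ± 0.42 (SE, adjusted p = 0.00185). Pf4, platelet factor 4, is made by megakaryocytes as well as by some macrophages. It read 369.5, 278.3, 323.4 and 266.2 in UB and 2782, 2699 and 2566 in MM, and the 3 MM arrays lay close together. It differed by -2.98 ± 0.21 (SE, adjusted p = 1.06e-06). Ccl4, an inflammatory chemokine, overlapped and did not pass (-0.57, adjusted p = 0.244).

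**Figure D3:**
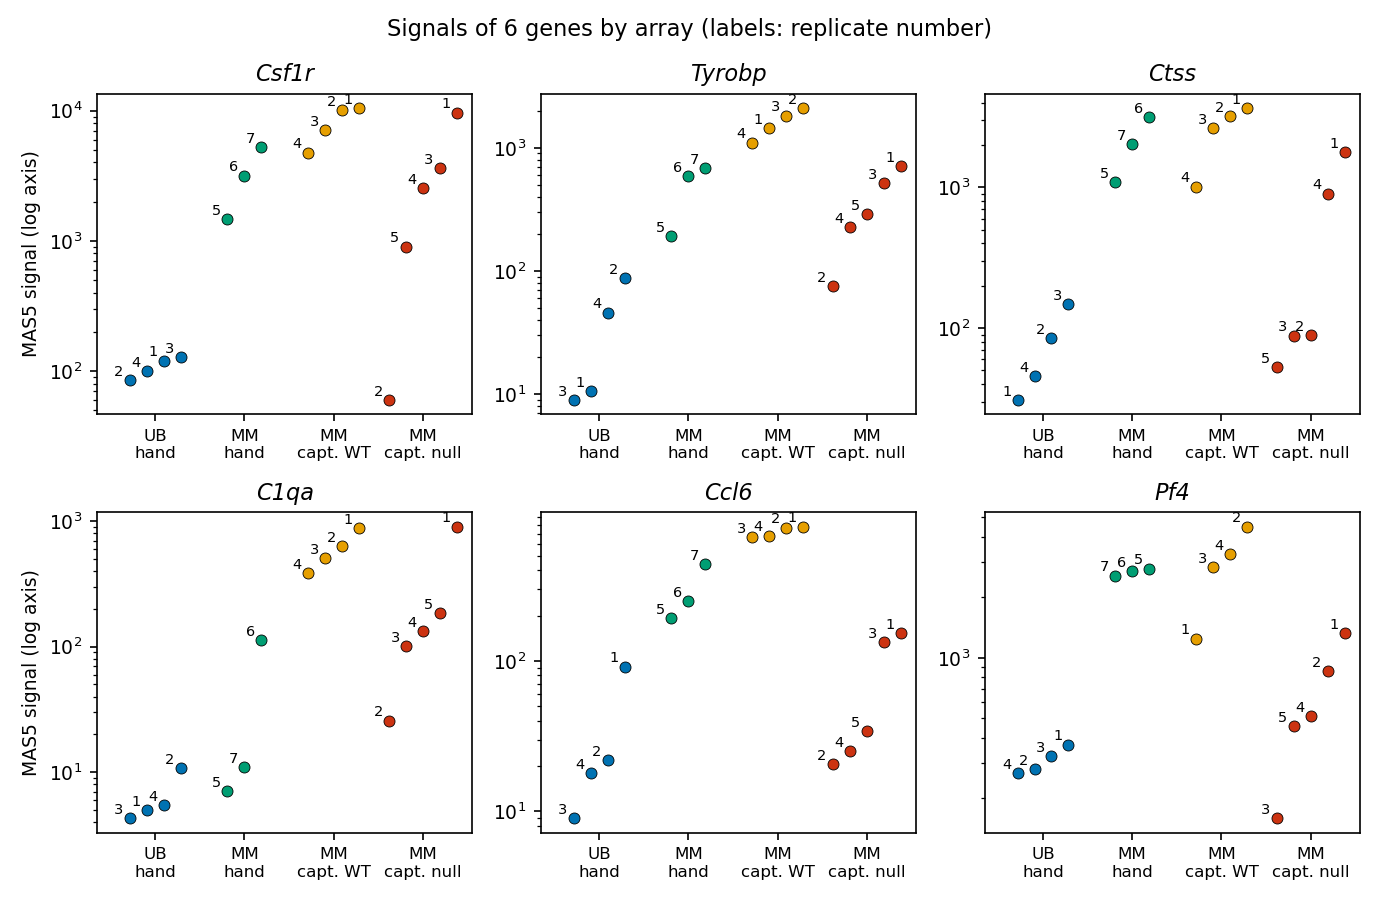
MAS5 signal (y axis, logarithmic, a scale of its own in each panel) of Csf1r, Tyrobp, Ctss, C1qa, Ccl6 and Pf4 on each array, by group (x axis), with replicate numbers beside the points. UB arrays are lowest or among the lowest in all 6 panels; for C1qa 2 hand-dissected MM arrays, at 7.1 and 11, lie near UB and the third reads 112.3, and for Ccl6 and Tyrobp no null capture reaches the wild-type captures.

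The DNA upstream of the start sites of these genes was read for a shared element. The 6-base word GAGGAA, the core of the PU box bound by PU.1, was searched on both strands in the 250 bases before each start in RefSeq's annotation of GRCm38.p6. Of the 35 genes, 25 had an entry, and 15 of these (60%) held the word at least once, against 25.9% of 27025 genes in the table. Among the 10 entries of genes lower in UB, 6 held it and 4 did not. Of genes tested in UB against MM and not called, 2 held it and 1 did not. Of genes not tested there, 7 held it and 5 did not, so the word did not set the lower genes apart. A match of 6 letters is a description of the sequence and not a bound site. The upstream stretches of 6 genes lower in UB are shown, 5 with the word and 1 without it, 5' to 3' towards the start, with the word in capitals (TTCCTC is the word on the other strand).
Laptm5: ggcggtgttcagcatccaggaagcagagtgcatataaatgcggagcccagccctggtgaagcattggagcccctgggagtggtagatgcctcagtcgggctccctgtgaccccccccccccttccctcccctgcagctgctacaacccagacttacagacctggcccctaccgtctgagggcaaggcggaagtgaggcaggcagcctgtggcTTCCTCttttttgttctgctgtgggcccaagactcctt
Mrc1: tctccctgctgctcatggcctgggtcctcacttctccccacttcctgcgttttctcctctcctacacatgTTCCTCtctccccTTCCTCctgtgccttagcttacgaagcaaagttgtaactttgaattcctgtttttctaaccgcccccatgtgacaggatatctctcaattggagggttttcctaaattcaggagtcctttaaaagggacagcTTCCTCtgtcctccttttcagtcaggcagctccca
Ctss: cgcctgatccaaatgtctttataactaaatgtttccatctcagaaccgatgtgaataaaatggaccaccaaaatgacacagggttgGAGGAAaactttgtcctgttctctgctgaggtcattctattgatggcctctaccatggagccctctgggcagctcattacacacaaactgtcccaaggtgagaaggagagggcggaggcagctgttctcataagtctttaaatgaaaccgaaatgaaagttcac
Fcgr3: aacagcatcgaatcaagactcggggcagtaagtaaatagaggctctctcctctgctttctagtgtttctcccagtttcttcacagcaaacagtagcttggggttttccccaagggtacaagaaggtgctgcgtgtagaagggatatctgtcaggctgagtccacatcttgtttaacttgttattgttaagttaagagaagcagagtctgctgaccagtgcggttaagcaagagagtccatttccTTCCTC
Pf4: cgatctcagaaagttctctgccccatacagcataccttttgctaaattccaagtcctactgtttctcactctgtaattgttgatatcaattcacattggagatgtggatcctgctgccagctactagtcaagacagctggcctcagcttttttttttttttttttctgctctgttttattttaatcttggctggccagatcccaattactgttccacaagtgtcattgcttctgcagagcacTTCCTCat
Ccl6: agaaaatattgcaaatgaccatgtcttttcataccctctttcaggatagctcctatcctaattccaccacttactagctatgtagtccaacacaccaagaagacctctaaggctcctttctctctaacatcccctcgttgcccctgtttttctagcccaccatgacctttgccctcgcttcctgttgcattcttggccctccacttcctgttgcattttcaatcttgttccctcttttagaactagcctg
The Laptm5 stretch is chr4:130913066-130913315 (plus strand), with the word 38 bases before the start. Mrc1 (chr2:14229164-14229413, plus strand) holds it 3 times, the nearest 35 bases before the start. Ctss (chr3:95526536-95526785, plus strand) holds it 164 bases before, and Fcgr3 (chr1:171059404-171059653, minus strand) and Pf4 (chr5:90772185-90772434, plus strand) hold it 6 and 8 bases before. The stretch of Ccl6 (chr11:83593088-83593337, minus strand) does not hold these letters.

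Other cell types of the mesenchyme were lower in UB beside the macrophage genes. Of the endothelial list, 13 of 16 tested genes were lower (Ramp2 by -2.50, Kdr by -2.90, Tek by -2.68 and Sox17 by -2.91), and its summed signal was 7340 to 14433 in UB and 24287 to 36229 in MM. Erythroid genes were lower in 6 of 10 tested, with sums of 22075 to 55611 in UB and 78541 to 85411 in MM. Of the megakaryocyte and platelet list, 5 of 8 were lower, among them Ppbp (-3.40), Tubb1 (-3.63) and Clec1b (-2.19), with sums of 1339.9 to 2189.7 against 5380 to 6978. The UB itself carried the markers of its own type, with 12 of 12 ureteric bud genes higher. Of 9 mesenchyme genes tested, 8 were lower and 1 was higher. None of the listed genes had a signal of 0 on any array. The part of these cell types in the macrophage result was not tested.

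Lists related to macrophages gave a mixed account in the same comparison. Leukocyte signalling genes were lower in 11 and higher in 2 of 20 tested: Plek, a substrate of protein kinase C in blood cells, was lower (-3.35), as were the kinase Syk (-2.38) and the adaptor Sla (-2.14), while the phospholipase Plcg2 (1.40) and the oxidase subunit Cyba (1.87) were higher in UB. Scavenging and lysosomal genes were lower in 8 and higher in 3 of 18, led by Tmem119 (-4.64), the cholesterol exporter Abca1 (-3.07), the receptor kinase Axl (-2.34) and Fcrls (-2.82), with Ctsc, Cst3 and Lgals3 higher. Of the growth factors and lineage regulators, Maf (-4.32), Zeb2 (-3.70), Csf2rb (-2.10) and Id2 (-1.67) were lower and Myb (2.11) higher, of 14 tested. Innate receptors and chemokines had 3 of 7 lower (Clec7a, Cd40 and Cxcl2), and antigen presentation 2 of 5 (H2-Aa and H2-Ab1). Several of these, such as Maf, Zeb2, Tmem119 and Axl, are expressed by mesenchymal cells as well.

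The comparison of null with wild-type captures asked which of these genes depend on Hoxa11 and Hoxd11, as far as the source piece and pooling allow. Of the 35 genes, 2 were lower in the null captures, Ccl6 and Tyrobp, and 0 were higher, with 25 tested in limma. At an unadjusted p under 0.05, 17 were lower and 0 higher, with 11.4% of all genes tested lower at that threshold. By adjusted p, 0.995% of all genes tested were lower and 0.748% higher. Without the filter 1 of all 35 was called lower by limma, Ccl6 (0.396% of all genes). The mean was lower in the null for 34 of 35 genes (57.3% of all genes), and the median over all 35 was -1.23, against -0.085 over all genes. For 5 genes every null array lay below every wild-type array (4.51% of all genes): Ccl6, Tyrobp, Laptm5, Fcer1g and Aif1. Itgam was the 1 gene with every null array above (2.42%), at 43.6 to 113 against 8.3 to 43.4. Neither Itgam nor Aif1 was above the array median on any array.

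Ccl6 and Tyrobp were the 2 genes called in all 3 comparisons. Ccl6 read 781.8, 769.7, 663.3 and 680.4 in the wild-type captures and 154, 20.6, 133.3, 25.3 and 34 in null replicates 1 to 5, a difference of -2.99 ± 0.45 (SE, adjusted p = 0.0113). The wild-type captures were close together, and null replicates 1 and 3 were the highest of the null captures. Tyrobp read 1449, 2104, 1828 and 1104 in the wild-type captures and 708.4, 75.9, 519.5, 226.5 and 288.5 in the null captures, a difference of -2.28 ± 0.50 (SE, adjusted p = 0.0470). Without any 1 of the wild-type captures neither gene passed in limma, and 0 of the 35 did, with 12 to 15 lower at an unadjusted p under 0.05 (7.69% to 9.86% of all genes tested). Tyrobp also failed to pass without any 1 of null replicates 2 to 5 and with each array centred on its median (-1.98).

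The count of called genes was larger without null replicate 1. In that array 8 of the 35 genes (22.9%) lay below every wild-type capture, against 29% of all genes. In null replicates 2, 3, 4 and 5 it was 29, 26, 28 and 28 genes (82.9%, 74.3%, 80% and 80%), against 34.6%, 32.7%, 33.2% and 31.7% of all genes. Without null replicate 1, 15 of the 35 genes were lower, with 24 tested and 3.89% of all genes tested lower. With no filter as well, 13 of all 35 were lower (1.86% of all genes). With each array centred 12 were lower, where 2.89% of probe sets were lower and 16.1% higher. With quantile normalization 11 were lower, where 3.81% of probe sets were lower and 2.33% higher. These fits without replicate 1, chosen after seeing the data, describe the other 4 null captures and do not replace the comparison with all 5.

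The receptors Csf1r, Mrc1, Ptprc and Fcgr3 differed among the null captures. Csf1r read 10467, 10136, 7124 and 4764 in the wild-type captures and 9678, 60.1, 3604, 2548 and 903.5 in null replicates 1 to 5. Replicate 1 was within the wild-type range, replicate 2 was below every UB array, and the difference of -2.35 ± 1.03 (SE) did not pass with all arrays (adjusted p = 0.25) or without replicate 1 (-3.02, adjusted p = 0.0718). Mrc1 read 1722, 2467, 1791 and 721.3 in the wild-type captures and 3336, 422.8, 1008, 243.4 and 323.8 in the null, with replicate 1 the highest of all captures (-1.18, adjusted p = 0.371). Ptprc read 240.1, 492.7, 745.1 and 1447 in the wild type and 1225, 3, 77.5, 51.2 and 6.1 in the null, a difference of -2.47 ± 0.93 (SE, adjusted p = 0.186). It was -3.33 without replicate 1 (adjusted p = 0.00862). Fcgr3 was 655.3 to 959.6 in the wild type and 745.9 in null replicate 1, against 33.2, 33, 59.2 and 201.3 in the others (-2.36 with all, adjusted p = 0.0965, and -2.95 without, adjusted p = 0.00511).

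The 3 complement genes, whose products form the C1q molecule that tags dying cells for uptake, followed the same pattern. C1qa read 882.9, 635.8, 506 and 386.6 in the wild-type captures and 904.9, 25.8, 101.8, 133.4 and 185.4 in the null (-1.63, adjusted p = 0.212). C1qb was 542.2 to 740 in the wild type and 721.7, 55.4, 184.3, 106.2 and 207.3 in the null (-1.66, adjusted p = 0.134), and its other 2 tested probe sets differed by -1.56 and -2.22. For C1qc the wild-type captures read 255.8 to 546.3 and the null 274.4, 9.1, 144.1, 70.1 and 103.9 (-1.79, adjusted p = 0.110). Without replicate 1 all 3 passed, at -2.19, -2.10 and -2.10.

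Lysosomal and secreted products differed from gene to gene in the null captures. Ctss read 3666, 3198, 2628 and 1015 in the wild type and 1775, 89.5, 88.4, 904.4 and 52.6 in the null, so replicates 1 and 4 stood above the other 3 (-3.01 ± 0.87, SE, adjusted p = 0.101). Ly86 showed the same 2 arrays high, at 933.7 and 231.7 against 3, 2.9 and 6.2 in replicates 2, 3 and 5 (-2.91, adjusted p = 0.159). Laptm5 had no overlap, with 2525 to 6197 in the wild type and 1106, 654.4, 1730.5, 1008 and 191.3 in the null, and missed the threshold (-2.35 ± 0.54, SE, adjusted p = 0.0523). Its other tested probe sets differed by -0.82 (adjusted p = 0.215) and -0.94 (adjusted p = 0.239). Pf4 read 1247, 4504, 2839.9 and 3282 in the wild type and 1327, 861.2, 159, 514.2 and 459 in the null (-2.24 ± 0.54, SE, adjusted p = 0.0625). Cd68 (129.5 to 1021 in the null, 432.1 to 983.6 in the wild type) and Ccl4 (41.3 to 202.2 and 149.9 to 276) overlapped widely between the groups. Without replicate 1, Ccl6, Tyrobp, Ptprc, Fcgr3 and the 3 complement genes were called. So were Mrc1, Ctss, Ly86, Laptm5, Pf4, Lyz2, Adgre1 and Fcgr1. Csf1r, Fcer1g, Lcp1, Cd53, Coro1a, Cd68, Cd52, Ccl4 and Rac2 passed in neither fit. Cx3cr1 was tested with all 5 null captures but not without replicate 1, and did not pass in limma (-0.52, adjusted p = 0.667).

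**Figure D4:**
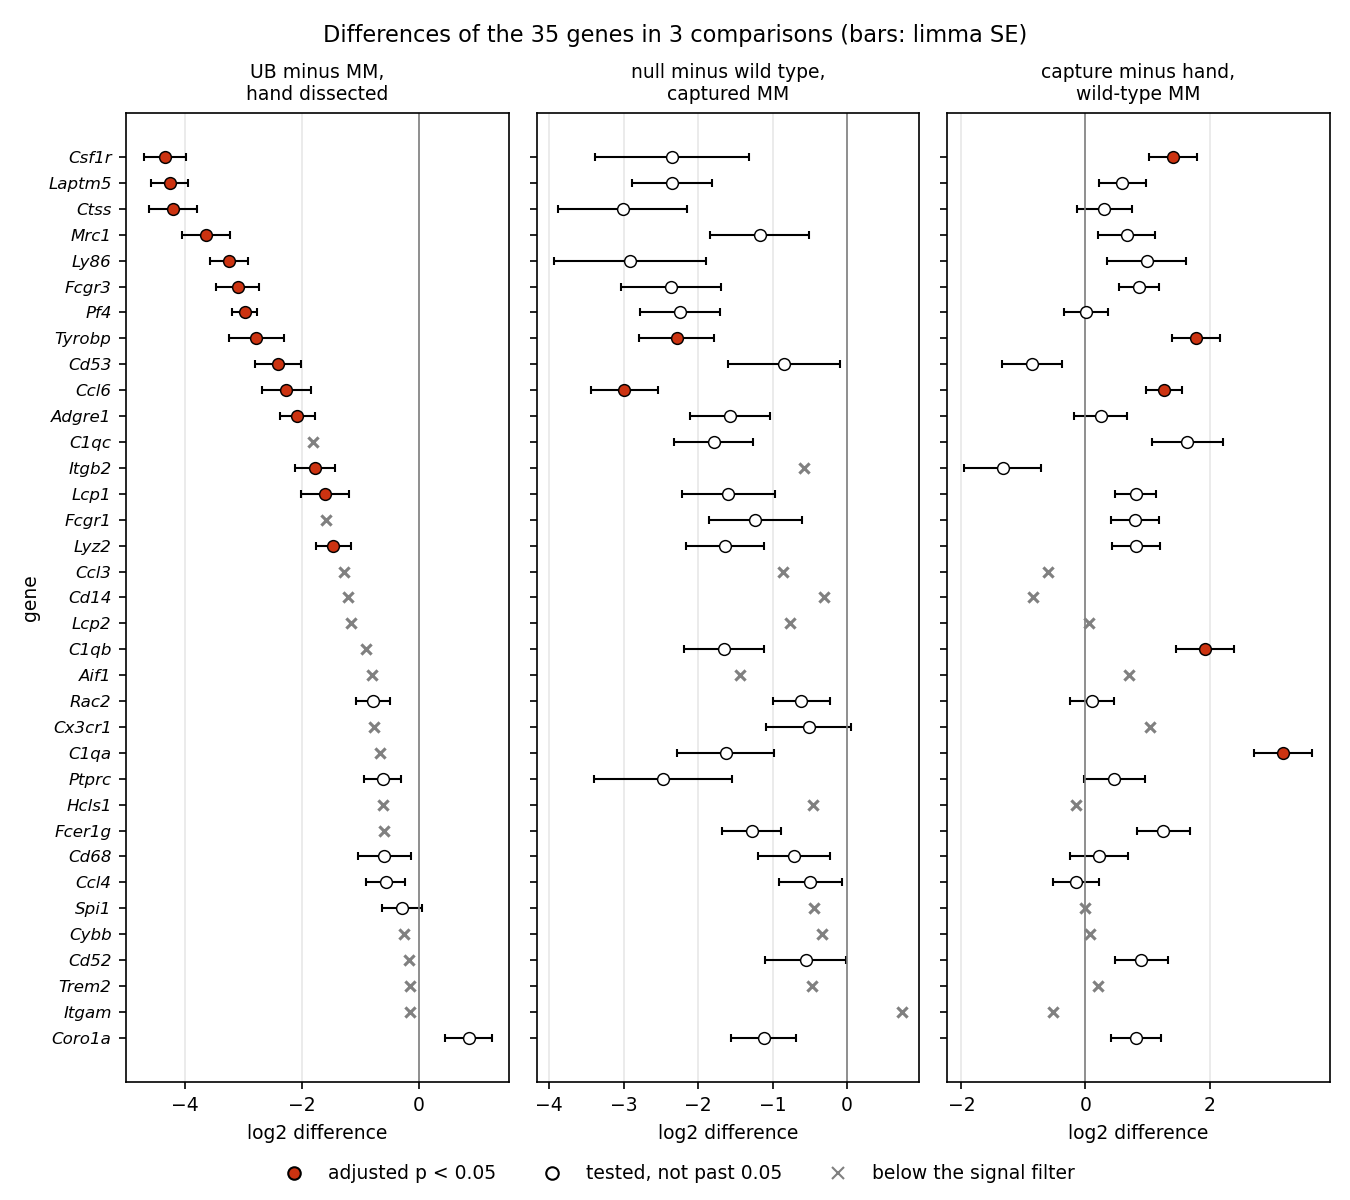
Log2 difference (x axes) of each of the 35 genes (y axis) in UB minus hand-dissected MM, null minus wild-type captured MM, and captured minus hand-dissected wild-type MM; filled circles passed the adjusted p of 0.05 in limma, open circles were tested and did not, crosses were below the signal filter and are shown without error, and bars are 1 SE. In the first panel 14 genes are filled and all lie below 0, in the middle panel only Tyrobp and Ccl6 are filled and 34 of 35 symbols lie below 0, and in the last 5 are filled, all above 0; the last comparison shares its arrays with the other 2.

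Of the other lists, 1 gene was called in the null comparison: Csf2rb, the shared beta chain of the receptors for GM-CSF and IL-3, at 445.7 ± 119 in the wild type (SD, n = 4) and 106.0 ± 34.1 in the null (SD, n = 5), a difference of -1.76 ± 0.35 (SE, adjusted p = 0.0363). Without the filter Csf2rb was not called (adjusted p = 0.0667), and Cd33, an inhibitory receptor of myeloid cells, was (-2.05, adjusted p = 0.0480). The medians over all genes of a list were -0.85 for leukocyte signalling, -0.84 for innate receptors and chemokines, -0.48 for growth factors and lineage regulators, -0.24 for scavenging and lysosome, and -0.04 for antigen presentation. For other cell types the medians were -1.08 for megakaryocyte and platelet, -0.98 for endothelial, -0.72 for erythroid, -0.79 for ureteric bud, -0.44 for mesenchyme, -0.44 for neutrophil, -0.14 for mast cell and 0.07 for lymphoid genes, with 0 genes called in each by limma. At an unadjusted p under 0.05, 3 of 8 megakaryocyte, 7 of 18 endothelial, 1 of 13 erythroid and 2 of 12 ureteric bud genes and 0 of the mesenchyme, neutrophil, mast cell and lymphoid genes were lower, against the 11.4% of all genes. In null replicate 1 the summed macrophage signal was the highest of the null captures, yet its endothelial mean level of 8.99 was the second lowest of the 5 and its erythroid level, 10.1, lay among the others. The part of these cell types and of the source piece in the macrophage values was not tested.

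**Figure D5:**
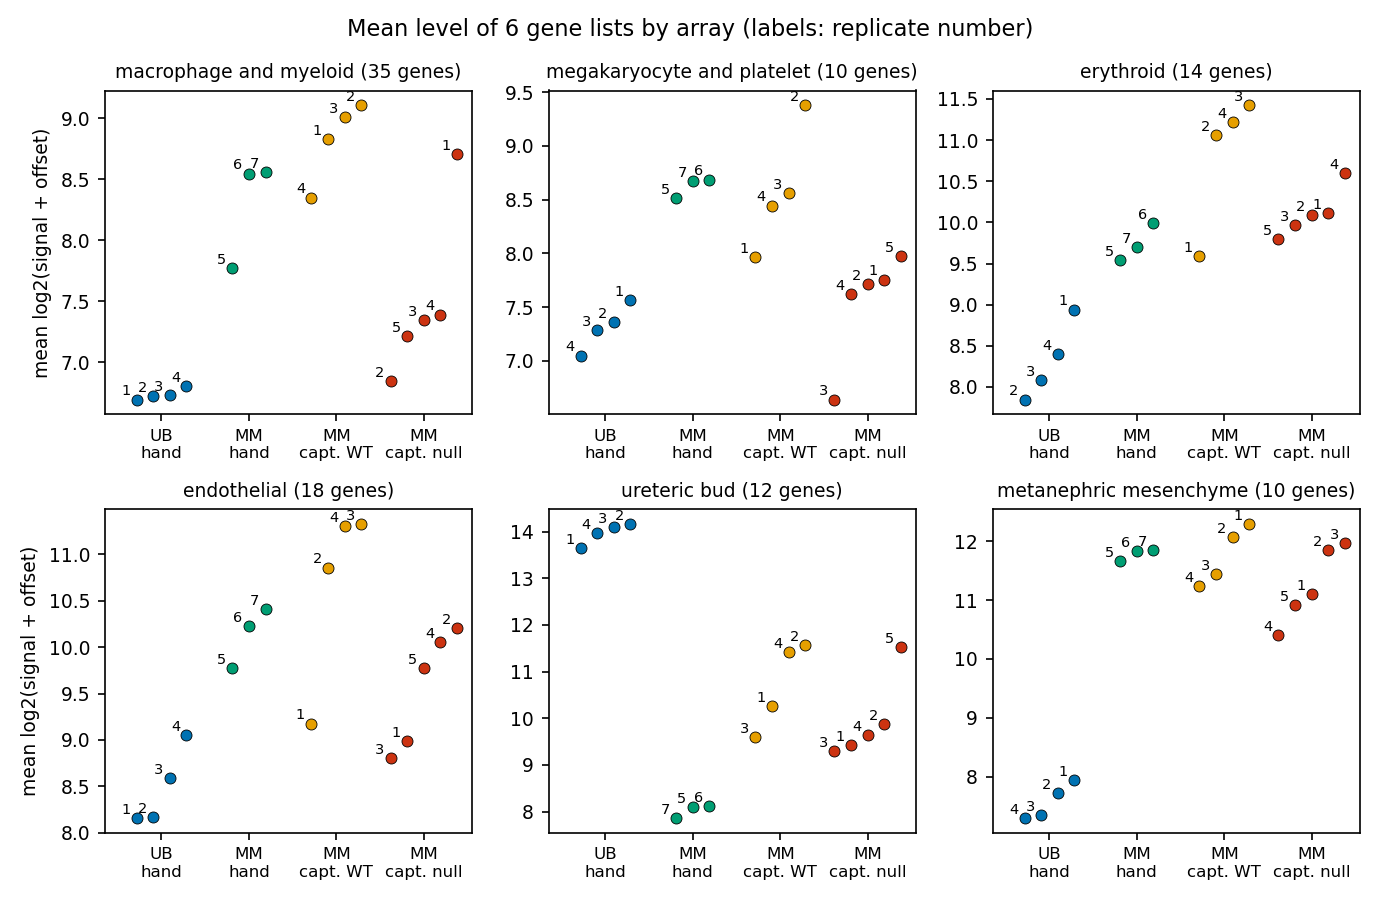
Mean log2(signal + 36.3) of 6 gene lists (1 panel each, y axis with a scale of its own) on each array, by group (x axis), with replicate numbers beside the points. Null replicate 1 is the highest null capture for the macrophage and myeloid genes at 8.70 but not for the other 5 lists, and the ureteric bud list is higher in the captures than in hand-dissected MM.

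Capture against hand dissection of wild-type MM asked how the method bears on these genes, and it shares arrays with both other comparisons. Of the 35 genes, 5 were higher in the captures and 0 lower, with 25 tested in limma. At an unadjusted p under 0.05, 9 were higher and 0 lower, with 21.7% of all genes tested higher at that threshold. By adjusted p, 13.6% of all genes tested were higher and 9.88% lower. Without the filter 5 of all 35 were called higher (6.8% of all genes). The mean was higher in the captures for 27 of 35 (52.7% of all genes), and every captured array lay above every hand-dissected one for 7 of 35 (14.3% of all genes). The count was 2 with 1 fit over all 16 arrays, where 7.95% of probe sets were higher. Without wild-type capture 4, the array with the lowest module level of its group, it was 8, with 11.7% of probe sets higher.

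Of the genes of the module tested in this comparison, C1qa had the largest difference and the lowest adjusted p in limma. C1qa read 7.1, 112.3 and 11 in hand-dissected MM and 386.6 to 882.9 in the captures, a difference of 3.19 ± 0.47 (SE, adjusted p = 0.00136). In hand-dissected MM it was above the array median on no array, and UB read 4.3 to 10.7. C1qb read 34.9, 305.9 and 221.1 by hand and 542.2 to 740 by capture (1.92 ± 0.47, SE, adjusted p = 0.0130). C1qc did not overlap, with 9, 195.3 and 254.5 against 255.8 to 546.3, and missed the threshold (adjusted p = 0.0557). Tyrobp was higher in the captures by 1.78 ± 0.39 (SE, adjusted p = 0.00815) and Ccl6 by 1.27 ± 0.30 (SE, adjusted p = 0.0111), neither with overlap. Csf1r was higher by 1.41 ± 0.39 (SE, adjusted p = 0.0228) with overlap, and lost its call without hand-dissected replicate 5 (0.92) or wild-type captures 1 (1.26) or 2 (1.28).

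Other genes differed little between the methods or went the other way. Pf4 differed by 0.01 ± 0.35 (SE), Rac2 by 0.11 ± 0.35 (SE) and Adgre1 by 0.25 ± 0.42 (SE). Itgb2 read 172.2, 273 and 270.7 by hand and 15, 258.8, 141.3 and 12.8 by capture, so captures 1 and 4 lay below every UB array. Its difference of -1.34 ± 0.62 (SE) did not pass (adjusted p = 0.134), nor did that of Cd53, -0.86 ± 0.48 (SE, adjusted p = 0.208). Ureteric bud genes were higher in the captures in 11 of 12, with sums of 3529.8 to 4158 by hand and 12820 to 71789 by capture, and erythroid genes in 7 of 13, with sums of 78541 to 85411 and 106202 to 185547. Among lists related to macrophages, Stab1 (1.87), Cst3 (1.05), Gas6 (1.11), Lgals3 (1.71) and Apoe (2.27) were higher of 19 scavenging genes tested, and Cyba (2.14), Cotl1 (0.74) and Ncf4 (1.85) of 21 leukocyte signalling genes. Of 14 innate genes, Ccl9 (1.31) was higher and the chemokines Cxcl1 (-1.56) and Cxcl2 (-1.62) and the inhibitory Fc receptor Fcgr2b (-0.92) were lower. The part of UB and blood cells in the captures was not tested.

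Most pairs of the genes that could be examined varied in the same direction from array to array within groups. After each group's mean was removed, the 29 genes above the median on at least 3 arrays had a median correlation of 0.41 over their 406 pairs, 344 of them above 0, from -0.56 to 0.92. For all such genes of the array the median was 0.004. Without the null captures, leaving 11 arrays, it was 0.34 for the members and 0.009 for all genes. These arrays share labelling and scaling, and the values are descriptions. With the mean of the other members, Cd53 (0.88), Fcgr1 and C1qb (0.87 each) and Ly86 (0.85) varied most closely, and Cd14 (-0.25), Spi1 (-0.04), Ccl4 (0.18) and Fcer1g (0.22) least.

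The genes outside the module whose residuals were most like its mean over the 16 arrays were, in order, Sla (0.94), 0610040J01Rik (0.94), Fcrls (0.93), Slc11a1 (0.92), P2ry13 (0.91), Zfp512b (0.91), Lrrc20, Mpeg1, Slc46a3 (0.88 each) and Steap4 (0.88). Mpeg1, which encodes the pore-forming protein perforin-2 of macrophages, read 6.7 to 9.5 in UB, 365.7 to 1562 in hand-dissected MM, 313.7 to 1664 in wild-type captures and 1185, 6.5, 13.6, 329.3 and 7.5 in null replicates 1 to 5, so null replicates 1 and 4 stood up as they did for Ctss and Ly86. Fcrls read 4067 in null replicate 1 and 25.1, 563.6, 568.3 and 313.3 in the others. Steap4 read 1944.8 in null replicate 1 and 14.5 to 29.8 in the others. With the null captures left out, r was 0.61 for Lrrc20, 0.65 for Slc11a1 and 0.69 for Steap4. It was 0.80 to 0.95 for the rest of the 10. Not all 10 shared the difference between compartments: 0610040J01Rik read 2101 to 2982 in UB and 141.8 to 233.9 in hand-dissected MM. By list, residuals followed those of the members at r = 0.96 for leukocyte signalling, 0.91 for scavenging and 0.91 for innate genes, at 0.34 for growth factors, 0.27 for antigen presentation and 0.07 for erythroid genes, and at -0.05 for mesenchyme and -0.25 for endothelial genes. Without the null captures the values were 0.95, 0.73, 0.92, 0.82, 0.71, 0.07, 0.43 and 0.08 in the same order, so those of the mesenchyme and endothelial genes changed sign.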

How the data were processed

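Each of 16 RNA samples went through 2 rounds of amplification and onto 1 Affymetrix mouse array, per the labels' protocols. The deposited values are linear signal intensity values from MAS5, per the submitters' processing notes. The trimmed mean of each array lay at 1500 with 2% removed at each tail, as read from the deposited values. Of 45101 probe sets, 64 controls were left out, and 34945 had 1 gene symbol in the platform annotation. Signals became log2(signal + 36.3), the offset being the 25th percentile of all values, with no further normalization.

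Each of the 3 comparisons was fitted on its own arrays with limma 3.58.1 in R 4.3.3 (lmFit, eBayes with trend) over 23851, 23387 and 23612 probe sets, with Benjamini-Hochberg adjustment, and was tested on simulated data. Likeness is Pearson's r of residuals from group means. Promoters came from RefSeq, and figures from matplotlib 3.10.9 in Python 3.11.15. Replicates are separate samples per the labels. The number of arrays limits the precision, and p-values measure only the spread between these samples.

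The members, the 13 lists and the rules were chosen with earlier results of these data known. Named are all members and the 10 genes most like the module. For genes of the lists the rule was up to 4 by smallest adjusted p, or all where 5 or fewer passed. Not every list follows this rule, and in some fewer or none are named. Alternatives were offset, floor, filter, scaling, array weights, trend, 1 joint fit, probe set choice, replicate block and leaving out each array.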

Additional observations from a re-analysis of the deposited data

Results flagged for a closer look

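The 35 genes and their mean level, in the 3 groups of 4 or 5 arrays, gave 108 sets of values, and in 6 of them, all of single genes, 1 array stood apart from the rest of its group. Chance gives about 1 in 20. The values in brackets are the gap to the nearest array as a share of the group's range, on the log2 scale. Among the null captures, Cd14, a receptor for bacterial lipopolysaccharide, was high in replicate 2 (8.29 against 6.03 for the next array, 0.77). Replicate 1 was high for Lcp2, the adaptor SLP-76 (8.55 against 6.53, 0.777), and low for Cybb (5.53 against 6.71, 0.855). In UB, Aif1 was high in replicate 2 (6.47 against 5.43, 0.854) and Rac2 low in replicate 3 (6.79 against 7.64, 0.886). Among the wild-type captures, Cd53 was low in replicate 4 (6.74 against 8.59, 0.929), the array with the lowest mean level of the 35 genes in its group. Except Rac2 and Cd53, these genes were tested in no comparison.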

How the results depend on the processing

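UB against MM kept 12 to 19 genes lower under every setting (13 to 19 when single arrays were left out), and 0 higher except 1 with array weights, 1 where any probe set counted and 1 without UB replicate 1 (0 to 1 over left-out arrays). In null against wild type, with 2 genes lower, the count was 1 with offset 16, the floor, no filter, centring on the median, no trend, or the mean over probe sets, and 13 with array weights and 10 in 1 fit over all arrays, where 4.89% and 5.45% of probe sets were lower, against 1.17%. It ran from 0 to 15 over left-out arrays, 15 being without null replicate 1. Without that array, in settings chosen after the data were seen, it was 12 with centring, 13 with no filter and 11 with quantile normalization. There 2.89%, 2.48% and 3.81% of probe sets were lower, and with centring 16.1% were higher. With a replicate block for numbers 1 to 4 the count was 0. In that fit 13 of 24 were lower at an unadjusted p under 0.05 in limma (10.1% of all genes). Residuals of same-numbered arrays had r from -0.05 to 0.06, and those of differently numbered arrays from -0.18 to 0.23. Whether a shared number marks a shared batch was not tested. In capture against hand dissection the higher count, 5, was 2 in 1 fit over all arrays, where 7.95% of probe sets were higher, against 16.3%. It was 4 to 8 over left-out arrays. The lower count was 0 except 1 with array weights and 0 to 1 over left-out arrays, 1 being without wild-type capture 2. No called gene changed sign, and 33 single-gene calls were lost, 20 of them in null against wild type. The cause of these shifts was not tested. Aif1, Itgam, Trem2, Hcls1 and Cybb, above the array median on no array by their chosen probe sets, are limited by signal over background.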
